A study of Mus musculus with 44 samples.

Results

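Distal open sites without acetylation in PVT are stretches of open chromatin in neurons of the paraventricular thalamic nucleus (PVT) that lie away from gene ends and carry no peak of H3K27ac, a histone mark of promoters and enhancers in use. They were taken as the autosomal peaks of the ATAC-seq table that lay more than 2 kb from both ends of every protein-coding gene (build mm10) and shared no base with a PVT H3K27ac peak. The rule kept 43902 of 87593 autosomal peaks, out of 89792 peaks in all. The other autosomal peaks were 26900 distal sites that overlapped a PVT H3K27ac peak, called acetylated distal sites below, and 16791 sites within 2 kb of a gene end, called gene-end sites. PVT was cut from adult mouse brain, nuclei were sorted after staining for NeuN, a neuronal nuclear protein, and open DNA was read by ATAC-seq, in which a transposase cuts accessible chromatin. There were 2 ATAC libraries of Polg(D181A) mice and 2 of wild-type (WT) mice. H3K27ac was counted in PVT and, as regions outside the thalamus, in cortex (COR), in the caudate putamen (CP) and in the nucleus accumbens (NAC), with 2 Polg(D181A) and 2 WT libraries per region. Polg is the catalytic subunit of the polymerase that copies mitochondrial DNA, and the labels do not name the promoter that drives the mutant form. The strain label is C57BL/6 for the H3K27ac libraries, but it reads C57BL/9 and C57BL/10 for the Polg and C57BL/7 and C57BL/8 for the WT ATAC libraries. Each ATAC library thus carries a number of its own, so strain as labelled cannot be told apart from library or genotype, and the sources used here do not say whether the numbers stand for real strains. The labels do not say whether replicates were taken from separate mice, and p-values therefore reflect only how far these libraries differ, which may be technical.

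As background, open chromatin far from gene ends holds enhancers, silencers and insulators. Enhancers in use usually carry H3K27ac, while open sites without it include primed or silenced enhancers and sites bound by the insulator protein CTCF. PVT is a midline thalamic nucleus of mostly glutamatergic neurons known for arousal, stress and feeding. Cortical projection neurons are also glutamatergic, while the projection neurons of CP and NAC release GABA.

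A small share of the non-acetylated distal sites overlapped the window around an annotated transcript start. RefSeq start windows, which run from 250 bases before to 50 bases after a start (build GRCm38.p6, which is mm10), overlapped 575 of the 43902 sites, and 665 of 31365 autosomal windows overlapped one. A window can overlap a site without the start itself lying in it. Of these windows, 294 belonged to protein-coding genes and 371 to long non-coding RNA genes. For 4 classes of overlap with H3K27ac elsewhere, the window of the most open site among those considered for printing is given here, 5′ to 3′ on the strand of the gene, with capitals for bases inside the open site. These windows are shown because they are sequence from the stretches near starts at open sites that lack PVT acetylation. In the Mast3 and Ing1 windows the site covers bases before the start and not the start itself.
Mast3, site at peaks of COR, CP and NAC: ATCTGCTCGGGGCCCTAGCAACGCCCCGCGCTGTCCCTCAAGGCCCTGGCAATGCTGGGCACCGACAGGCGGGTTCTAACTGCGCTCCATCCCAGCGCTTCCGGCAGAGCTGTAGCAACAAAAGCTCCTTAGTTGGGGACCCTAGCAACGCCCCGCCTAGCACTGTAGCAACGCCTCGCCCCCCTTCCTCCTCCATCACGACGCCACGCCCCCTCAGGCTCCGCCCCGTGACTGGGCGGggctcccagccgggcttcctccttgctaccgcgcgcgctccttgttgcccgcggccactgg
Rfx1, site at a COR peak: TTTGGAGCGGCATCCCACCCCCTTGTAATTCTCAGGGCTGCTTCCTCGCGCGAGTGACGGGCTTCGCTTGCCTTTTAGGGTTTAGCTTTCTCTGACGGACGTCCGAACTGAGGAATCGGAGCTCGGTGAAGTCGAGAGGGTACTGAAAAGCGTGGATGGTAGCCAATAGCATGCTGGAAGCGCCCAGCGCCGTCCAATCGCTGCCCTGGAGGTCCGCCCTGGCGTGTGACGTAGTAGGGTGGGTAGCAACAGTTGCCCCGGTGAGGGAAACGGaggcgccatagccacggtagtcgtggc
Gm41069, site at peaks of CP and NAC: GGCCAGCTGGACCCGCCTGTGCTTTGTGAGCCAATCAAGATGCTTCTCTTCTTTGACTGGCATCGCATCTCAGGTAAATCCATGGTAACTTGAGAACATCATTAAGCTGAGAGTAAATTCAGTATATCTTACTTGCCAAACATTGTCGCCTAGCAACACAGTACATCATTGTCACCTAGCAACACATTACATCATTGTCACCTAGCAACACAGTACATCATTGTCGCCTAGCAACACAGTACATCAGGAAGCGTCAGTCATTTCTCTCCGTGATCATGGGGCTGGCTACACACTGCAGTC
Ing1, site at no peak of the 3 regions: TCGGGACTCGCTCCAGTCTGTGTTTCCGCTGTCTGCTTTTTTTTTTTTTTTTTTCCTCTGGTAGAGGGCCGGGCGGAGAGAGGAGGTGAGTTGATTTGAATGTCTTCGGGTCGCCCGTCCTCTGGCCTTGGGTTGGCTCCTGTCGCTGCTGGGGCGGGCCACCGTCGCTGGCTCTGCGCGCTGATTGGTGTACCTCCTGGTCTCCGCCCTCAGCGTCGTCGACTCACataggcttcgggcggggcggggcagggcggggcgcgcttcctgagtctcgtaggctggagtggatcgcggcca

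The Mast3 window (chr8:70792384-70792683, minus strand) had 239 of its 300 bases in the site chr8:70792445-70792787, and 68.3% of its bases were G or C. Mast3, a microtubule-associated serine/threonine kinase, is the host gene, and this site lay 12261 bp from its nearer end. The site had 241 and 169.5 counts scaled to the library total (CPM) per kb of site in the Polg libraries, against 262 and 101.3 in the WT libraries. The Rfx1 window (chr8:84066586-84066885, plus strand) had 273 bases in its site and 25 CpG dinucleotides. Rfx1, a winged-helix transcription factor, had a site level of 214 and 194 CPM per kb in Polg and 179.6 and 136.5 in WT libraries. The Ing1 window (chr8:11558160-11558459, plus strand) had 27 CpG dinucleotides. Ing1, a reader of histone methylation, had a site level of 208 and 158.9 CPM per kb in Polg and 181 and 137.1 in WT libraries. The Gm41069 window (chr13:113225918-113226217, minus strand) lay wholly in its site, and only 6 CpG dinucleotides were in it. Gm41069, a long non-coding RNA gene, had a site level of 123.9 and 84.8 CPM per kb in Polg and 105.9 and 84.5 in WT libraries. Polg and WT levels overlapped at the Mast3, Ing1 and Gm41069 sites, while both Polg libraries lay above both WT libraries at Rfx1 (log2 difference 0.36, SE 0.32, edgeR adjusted p = 0.824).

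Over all 665 windows that overlapped the non-acetylated distal sites, the median share of G and C was 53.3% and the median number of CpG was 3 per 100 bases. The same medians were 56.3% and 4.33 for the 1273 windows in acetylated distal sites, 62.7% and 7.67 for the 9877 windows in gene-end sites, and 53.0% and 2.33 for all autosomal windows. The core motif of CTCF, on either strand, was in 11.7% of the windows in non-acetylated distal sites. It was in 12.5% of those in acetylated distal sites, 14.03% of those in gene-end sites and 8.73% of all windows. The E-box letters CAGNTG, with N for any base, were in 54.0%, 53.0%, 41.7% and 51.4% of the same 4 sets, and the homeodomain letters TAATTA in 6.17%, 4.24%, 1.79% and 5.27%. The AP-1 letters TGANTCA were in 8.57%, 7.15%, 3.58% and 7.85%, the MEF2 motif in 5.41%, 4.01%, 2.79% and 3.73%, and the EGR letters GCGNGGGCG in 5.11%, 8.41%, 11.7% and 5.63%. The RFX and NFI motifs were in 0.752% and 0.15% of the windows in non-acetylated distal sites and in 0.306% and 0.0383% of all windows. A match is a description of the letters, matches of different motifs may overlap, and the windows cover only sites near an annotated start.

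Sites with a start window were more open and more often acetylated elsewhere than the rest of the non-acetylated distal sites. Their median level was 19.8 CPM per kb (quartiles 12.4 and 38.8), against 11.3 for the 43327 sites without one. An H3K27ac peak of COR, CP or NAC overlapped 340 of the 575 (59.1%), against 13104 of the 43327 (30.2%). At windows of protein-coding genes the share was 70.3% of 259 sites, and at windows of long non-coding RNA genes 50.8% of 329 sites. The most open site at a non-coding window was at Mir22hg, the host transcript of miR-22, at chr11:75461296-75461656, with 175 and 179 CPM per kb in Polg and 192 and 146.5 in WT libraries. COR and NAC peaks overlapped it.

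The non-acetylated distal sites also overlapped 9 of the 919 autosomal microRNA hairpins of RefSeq. Of these, 3 belong to the Mir344 cluster on chromosome 7, an imprinted stretch near Ndn, and 4 of their mature sequences are shown with the seed (bases 2 to 8) in capitals to show whether any share one. Mature 344d-2-5p and 344c-5p lie partly outside their sites.
mmu-miR-344d-3p: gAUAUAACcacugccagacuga
mmu-miR-344d-2-5p: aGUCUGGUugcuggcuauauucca
mmu-miR-344c-5p: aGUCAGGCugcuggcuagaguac
mmu-miR-344i: aAGUCAGGcuccuggcugga

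No seed was shared among these 4 mature sequences, although the 344c-5p and 344i seeds both hold the letters GUCAGG, shifted by 1 base. The site at Mir344d-2 (chr7:61685010-61685332) had 27.02 and 14.3 CPM per kb in Polg and 6.55 and 3.43 in WT libraries, so the groups did not overlap (log2 difference 1.95, edgeR adjusted p = 0.798). It lay at COR and NAC peaks. This site is 323 bp wide with a name ending in 1, a group described below. In that group both Polg libraries lay above both WT libraries at 49.0% of tested sites, against 24.2% of all tested non-acetylated distal sites. The site at Mir344c (chr7:61837380-61837905) had 12.7 and 23.7 CPM per kb in Polg and 25.8 and 28.1 in WT libraries, so both Polg levels lay below both WT levels, with peaks of all 3 other regions over it. The site at Mir344i (chr7:62085221-62085569) had 37.5 and 23.4 CPM per kb in Polg and 11.4 and 22.2 in WT libraries, so both Polg levels lay above both WT levels, and no peak of the 3 regions lay over it. Neither passed the test (edgeR adjusted p = 0.824 at Mir344c and 0.798 at Mir344i).

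Total ATAC counts were 4356827 and 8040451 in the Polg libraries and 7474552 and 2932270 in the WT libraries, so Polg 1 and WT 2 were the shallow ones. The median non-acetylated distal site held 17 and 38 counts in Polg and 32 and 11 in WT libraries, and 38410 sites (87.5%) had a count in all 4. H3K27ac totals ranged from 6415127 in NAC to 197650530 in COR. In CP WT 2 80.8% of peaks and in NAC WT 2 69.6% of peaks had no count, more than in any other library. Neuronal markers were open at gene ends: 12 of 12 pan-neuronal genes had an open end, among them Rbfox3, which encodes NeuN. Open ends were found at 18 of 20 PVT and thalamus genes, 8 of 12 astrocyte, 4 of 12 oligodendrocyte, 6 of 11 microglia and 7 of 10 vascular genes. Ends of the oligodendrocyte genes Mog, Mag, Sox10 and Olig2 were among those with no peak. Summed levels at those ends were 348 to 366 CPM in Polg and 372 to 374 CPM in WT libraries for pan-neuronal genes, and 92.7 to 92.8 CPM in Polg and 104 to 123 CPM in WT libraries for astrocytes, both without overlap. They were 46.2 to 61.6 CPM in Polg and 45.1 to 72.4 CPM in WT libraries for oligodendrocytes, 53.1 to 64.5 CPM in Polg and 55.8 to 74.4 CPM in WT libraries for microglia, and 52.4 to 64.9 CPM in Polg and 45.2 to 58.8 CPM in WT libraries for vascular cells. Their part in the results below was not tested. Polg was the nearest gene of 1 non-acetylated distal site (chr7:79495987-79496309), 28076 bp from the gene end. That site had 45.3 and 35.9 CPM per kb in Polg and 20.4 and 49.2 in WT libraries. The other open sites assigned to Polg were acetylated distal or gene-end sites and are not described, so the level here does not stand for the gene. Read depth at such sites does not check the point mutation.

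The sites were less open than the other classes. Their median level was 12.7 and 11.95 CPM per kb in the Polg libraries and 11.3 and 11.4 in the WT libraries, with means of 12.3 ± 0.538 in Polg and 11.4 ± 0.0736 in WT (SD, n = 2 each). Acetylated distal sites had means of 18.8 ± 0.851 in Polg and 19.9 ± 0.641 in WT, and gene-end sites 33.6 ± 0.558 in Polg and 34.9 ± 0.627 in WT (SD, n = 2 each). In every library the non-acetylated distal sites were lowest and the gene-end sites highest. Both Polg medians lay above both WT medians for the non-acetylated distal sites, and both lay below for acetylated distal and gene-end sites. At non-acetylated distal sites with a peak name ending in 2 or more, described below, the medians of the genotypes overlapped. Medians of sites inside genes were 12.8 and 12.6 in Polg and 12.3 and 12.4 in WT libraries, and medians between genes were 12.3 and 11.3 in Polg and 10.5 and 10.9 in WT libraries. From site to site the mean level ran from 4.55 at the first to 54.5 CPM per kb at the 99th percentile, and 143 sites reached 100 CPM per kb.

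**Figure D1:**
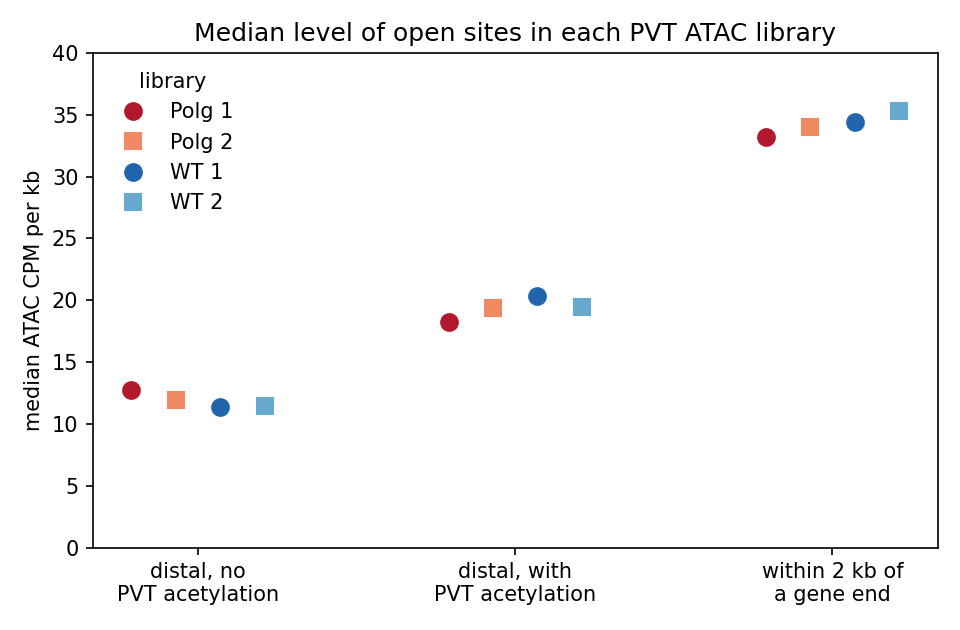
Median ATAC level (CPM per kb of site, linear axis from 0) of the 3 classes of open sites, 1 point per PVT library, Polg 1, Polg 2, WT 1 and WT 2 in that order within each class. The non-acetylated distal sites sit at 11.3 to 12.7 CPM per kb, below the other classes in all 4 libraries.

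Libraries ranked the non-acetylated distal sites less alike than the other classes. Over the 42082 sites that passed the filter on low counts, Spearman's rho across sites was 0.382 between the Polg libraries, 0.587 between the WT libraries and 0.236 to 0.459 between libraries of different genotype. Each pair with Polg 1 was lower than each pair without it. In acetylated distal sites rho was 0.573 to 0.673 over all pairs, and in gene-end sites 0.845 to 0.891. These are descriptions across sites counted in the same libraries, and the classes also differ in counts per site.

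A very small number of sites took much of the reads. The 25 non-acetylated distal sites with a mean of 1000 CPM per kb or more, a threshold set after the values had been seen, held 30.4% and 16.5% of autosomal ATAC counts in the Polg libraries and 15.2% and 30.2% in the WT libraries. Of these sites, 11 lay on chromosome 9, and the others on chromosomes 1, 2, 6, 12, 14 and 17. No H3K27ac peak of COR, CP or NAC overlapped any of the 25. As background, places such as these on chromosomes 2, 9 and 14 hold satellite repeats and are known to collect reads in many mouse sequencing libraries.

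The highest site was chr2:98666965-98667293, 1035293 bp from Lrrc4c, with 382567 and 154252 CPM per kb in Polg and 146677 and 359772 in WT libraries. Next came chr9:3024288-3024616, with 144418 and 64382 CPM per kb in Polg and 57379.7 and 138903 in WT libraries. Both were high in Polg 1 and WT 2 and low in Polg 2 and WT 1, so the genotypes overlapped. The same split, with Polg 1 and WT 2 both above Polg 2 and WT 1, was found at 18 of the 25 sites. A site in the pseudogene Gm10222 (chr1:24612578-24612911), in a stretch that as background resembles mitochondrial DNA, had 27577 and 11563 CPM per kb in Polg and 26056 and 24442 in WT libraries. There Polg 2 alone was low, and the edgeR log2 difference was -0.36 (SE 0.88, adjusted p = 0.934). The 4 sites on chromosome 17, among them chr17:39847671-39847999 at the ribosomal RNA pseudogene Rn18s-rs5, showed another split: that site had 1028 and 2388 CPM per kb in Polg and 814 and 2631 in WT libraries. All 4 were high in Polg 2 and WT 2. None of the 25 sites had an unadjusted p under 0.05 between genotypes.

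**Figure D2:**
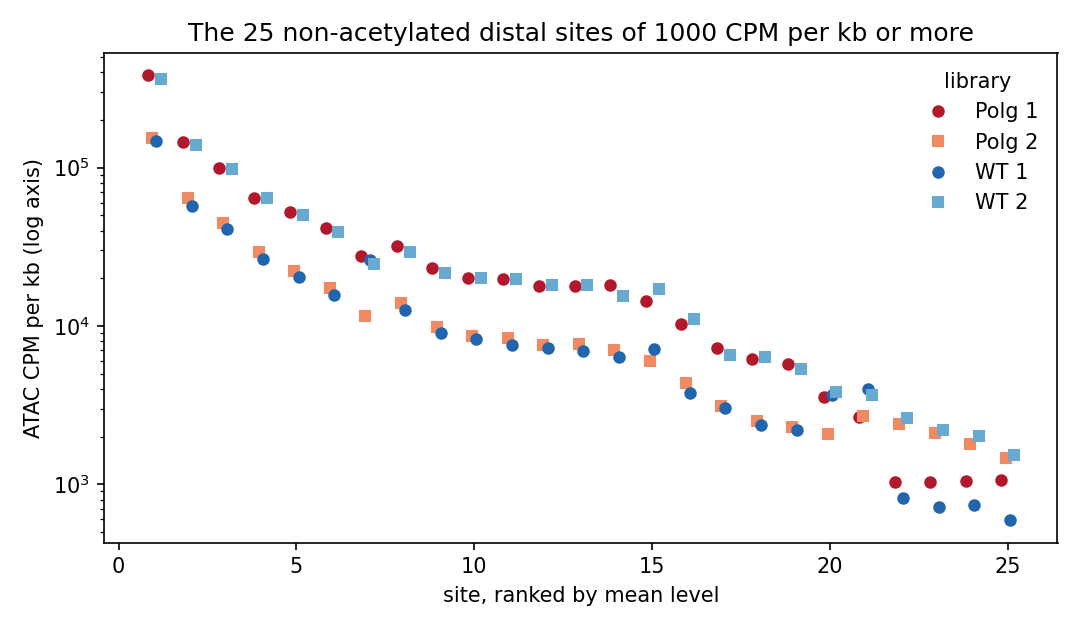
ATAC level (CPM per kb of site, log axis) of the 25 non-acetylated distal sites of 1000 CPM per kb or more, ranked by mean level, with 1 point per library. Polg 1 and WT 2 lie above Polg 2 and WT 1 at 18 sites, and at the 4 sites at the right end Polg 2 and WT 2 lie above the others.

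All non-acetylated distal sites together held 52.3% and 41.9% of autosomal counts in the Polg libraries and 39.2% and 51.7% in the WT libraries, with means of 47.1 ± 7.36% and 45.5 ± 8.83% (SD, n = 2 each). The difference of 1.63 percentage points did not pass a 2-sided exact permutation test (p = 0.667, where 2 against 2 allows no p under 0.3333). It was -3.57 points without Polg 1, -4.61 without WT 1, 6.84 without Polg 2 and 7.87 without WT 2. With the 25 high sites left out of both the sites and the totals, the shares were 31.4% and 30.4% in Polg and 28.3% and 30.8% in WT libraries, so the genotypes overlapped.

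Below 1000 CPM per kb, the 10 most open sites lay inside genes or up to 367764 bp from the nearest gene, and these genes were of no common kind. The highest was chr6:103314454-103314782, 195802 bp from the adhesion gene Chl1 and at a CP peak, with 1691 and 514 CPM per kb in Polg and 563 and 1206 in WT libraries. A site inside Tmem267 (chr13:119598885-119599221) had 1118 and 512 in Polg and 487 and 1351 in WT libraries. A site inside Lama1, a laminin chain of basement membranes, had 919 and 217 in Polg and 345 and 961 in WT libraries (chr17:67741269-67741597). These 3 again were high in Polg 1 and WT 2. A site 281697 bp from Pex2 (chr3:5860293-5860621) had 485 and 1005 in Polg and 349.7 and 1135 in WT libraries, high in the second library of each genotype. Genotypes overlapped at all 10 of the highest sites below 1000 CPM per kb.

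Sites lay both inside and between genes, and the genes with most of them were very long. Of the 43902, 23376 (53.2%) lay inside a protein-coding gene and 20526 between genes, while 56.3% of acetylated distal sites lay inside one. The median distance to the nearest gene end was 45.6 kb, against 38.0 kb for acetylated distal sites. Within 10 kb of a gene end were 6557 sites (14.9%), and 13792 (31.4%) were over 100 kb away. A long non-coding RNA gene overlapped 4719 sites (10.7%), against 13.4% of acetylated distal sites. The share of distal sites without PVT acetylation ran from 56.6% on chromosome 9 to 66.1% on chromosome 3.

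Host genes numbered 6547 of 20665 autosomal protein-coding genes, and 2760 of them held 1 site. The most sites lay in Ptprd, a presynaptic receptor tyrosine phosphatase (90 sites, 19 acetylated), Cntnap2, a neurexin-like adhesion protein (76 and 17), and Lsamp, an adhesion protein of limbic neurons (71 and 37). Macrod2, an ADP-ribose hydrolase, held 60, Csmd1, a complement control protein, 58, and Nrxn3, a neurexin, 56. Kcnip4, a subunit of A-type potassium channels, held 55, Tenm2, a teneurin, 54, Dlg2, a postsynaptic scaffold, 53, and Asic2, an acid-sensing ion channel, 51. These 10 genes were 1088 to 2271 kb long and held 624 sites. The number of sites in a gene followed its length (Spearman's rho 0.738 across the 6547 host genes, a description), and host genes had a median length of 65.2 kb against 17.5 kb for all. Per 100 kb of gene, among genes with at least 5 sites, the densest were 9530057J20Rik (6 sites in 32.0 kb), Trpv4, an osmosensitive cation channel (5 in 36.3 kb), and Agxt2, a mitochondrial aminotransferase (7 in 51.6 kb). Plekhh1 and Efhd1, a mitochondrial calcium-binding protein, followed with 11.4 and 10.8 sites per 100 kb. In Trpv4, Agxt2, Plekhh1 and Efhd1 no distal open site was acetylated, as in 3137 of the 6547 host genes.

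The deepest site inside a gene was chr4:77052413-77052735, 1111176 bp from an end of Ptprd, with 3.18 and 14 CPM per kb in Polg and 6.55 and 1.14 in WT libraries. Of the 5 deepest sites 4 were in Ptprd and 1 in Cntnap2. The 5 sites farthest from any protein-coding gene were 2201923 to 2248605 bp away, 4 of them on chromosome 18 and 1 near Pcdh20 on chromosome 14. The chromosome 14 site (chr14:90706603-90706925) had 33.4 and 3.07 CPM per kb in Polg and 1.93 and 2.29 in WT libraries, so Polg 1 stood alone. At the limit of the rule, sites 2001 and 2002 bp from an end of Lhx4, Grn and Zdhhc5 were kept, with 5.46 and 0, 39.6 and 40.6, and 19.1 and 18.1 CPM per kb in the 2 Polg libraries. Their WT levels were 12.5 and 13.5, 30.6 and 35.1, and 16.6 and 19.5 CPM per kb. Sites 1998 bp from an end of Glipr1l2, Bhmt and Gstk1 were outside it, with 17.6 and 6.27, 14.04 and 3.02, and 5.56 and 14 in Polg. Their WT levels were 10.0 and 13.8, 15.1 and 14.6, and 6.55 and 4.58.

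Many sites lay close to PVT acetylation without touching it. The median distance to the nearest PVT H3K27ac peak was 5.04 kb (quartiles 1.40 and 14.6 kb), and 6021 sites (13.7%) had one within 500 bp. Levels were lowest far from PVT acetylation, with medians of 13.7 CPM per kb within 500 bp, 12.5 up to 1000 bp, 12.7 up to 5000 bp, 10.6 up to 20000 bp and 9.48 beyond. Overlap with H3K27ac elsewhere was 36.9%, 34.1%, 35.2%, 28.2% and 21.8% over the same steps. When an overlap counted only with PVT peaks that had a count in all 4 PVT libraries, 45443 sites were without acetylation.

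H3K27ac peaks of other regions covered a minority of the sites. COR peaks overlapped 7364 sites (16.8%, exact 95% binomial interval 16.4 to 17.1%), CP peaks 4432 (10.1%, 9.81 to 10.4%) and NAC peaks 6759 (15.4%, 15.1 to 15.7%). Any of the 3 regions had a peak at 13444 sites (30.6%, 30.2 to 31.1%), all 3 at 981 (2.23%, 2.10 to 2.38%), and none at 30458. Acetylated distal sites had a peak in any of the 3 regions at 55.4% (54.8 to 56.0%) and gene-end sites at 73.4% (72.7 to 74.1%). The intervals cover counting error only, since each table has 1 merged peak set and no replicate of an overlap. Peaks with a count in all 4 libraries of their region overlapped 14.8% of the non-acetylated distal sites, against 37.4% of acetylated distal and 56.4% of gene-end sites. The tables differ in covered length, at 134 Mb in PVT, 140 Mb in COR, 68.9 Mb in CP and 117 Mb in NAC, so shares of different regions are not on 1 footing.

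**Figure D3:**
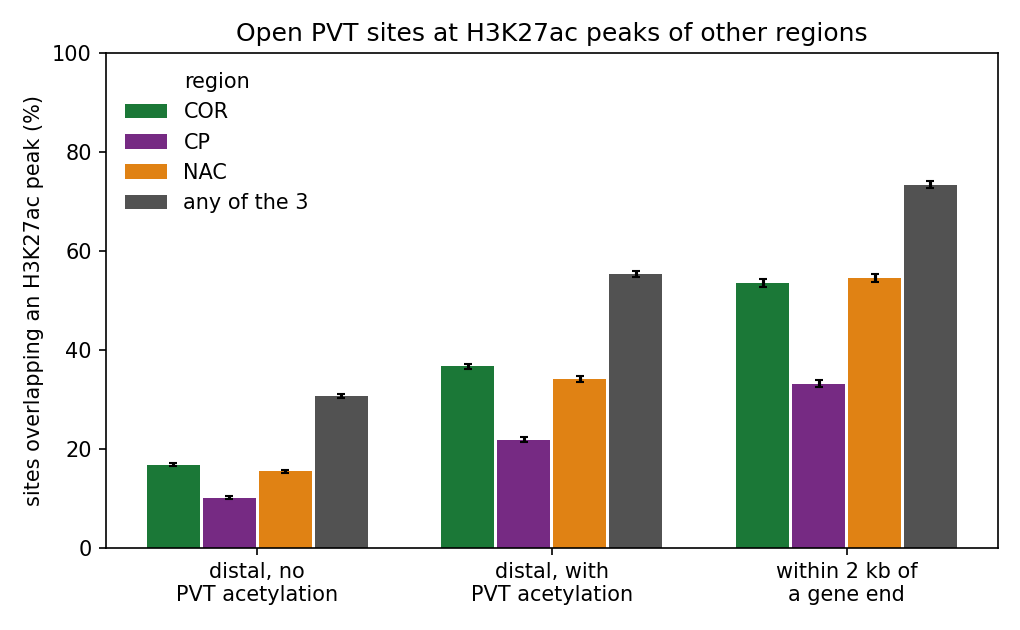
Share of open PVT sites (percent, linear axis from 0) that share at least 1 base with an H3K27ac peak of COR, CP, NAC or any of the 3, for the 3 classes of sites. Bars show exact 95% binomial intervals, which cover counting error only. The non-acetylated distal sites reach 30.6% for any region, below 55.4% and 73.4% in the other classes.

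More open sites were more often acetylated elsewhere. The share with a peak in COR, CP or NAC was 18.9%, 24.9%, 32.9% and 45.8% over 4 equal groups of sites by mean level, lowest to highest. In acetylated distal sites the same shares were 39.6%, 48.6%, 58.2% and 75%. By overlap the median level was 18.8 CPM per kb for sites at peaks of all 3 regions, 16.5 for COR and NAC, 14.9 for COR and CP and for CP and NAC, 13.0 for COR alone, 12.9 for NAC alone, 12.3 for CP alone and 10.6 for none. The order held in each library for all 3 regions against none, with 18.3 and 18.9 in Polg and 18.5 and 20.2 in WT libraries for all 3, and 11.9 and 11.1 in Polg and 10.5 and 10.3 in WT libraries for none.

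The most open sites of each overlap class lay in or near genes of several kinds. At peaks of all 3 regions, after Mast3, came a site inside Prdm10, a zinc finger factor (chr9:31280292-31280677), with 169.6 and 144.6 CPM per kb in Polg and 186 and 158.1 in WT libraries. A site inside Dlg4, which encodes the postsynaptic scaffold PSD-95 (chr11:70021416-70021815), had 130.9 and 92.7 in Polg and 142.7 and 156 in WT libraries, both WT above both Polg levels. A site 5643 bp from Syt3, a synaptotagmin (chr7:44405673-44406001), had 118.6 and 167 in Polg and 141 and 116.9 in WT libraries. At COR peaks alone the highest was inside Cmss1 and Filip1l, which overlap each other (chr16:57391344-57391749), with 324 and 450.2 in Polg and 166 and 551 in WT libraries. A COR site 3136 bp from Cilk1 overlapped the small nuclear RNA gene Rn7sk and had 155 and 82.9 in Polg and 191 and 105 in WT libraries. At CP and NAC peaks without COR the highest lay 3206 bp from Tmem125 (chr4:118548126-118548461), with 1252 and 290.2 in Polg and 316 and 846 in WT libraries. A CP and NAC site inside Slc39a10, a zinc transporter (chr1:46853414-46853744), had 110.1 and 92.0 in Polg and 112 and 72.6 in WT libraries. Apart from Dlg4, the genotypes overlapped at each site named here.

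Grouped by host or nearest gene, non-acetylated distal sites of region-defining gene lists differed in where they met H3K27ac. Of the 143 sites at striatal projection neuron genes, 39 (27.3%) overlapped a NAC peak, 28 (19.6%) a CP peak and 12 (8.39%) a COR peak. Of the 99 at cortical projection neuron genes, 22 (22.2%) overlapped a COR peak, 12 (12.1%) a NAC peak and 9 (9.09%) a CP peak. Of the 43 at GABA neuron genes, 15 (34.9%) overlapped a NAC peak, 8 (18.6%) a CP peak and 3 (6.98%) a COR peak. Of the 95 at PVT and thalamus genes, 13 (13.7%) overlapped a COR peak, 10 (10.5%) a NAC peak and 7 (7.37%) a CP peak. The 76 sites at pan-neuronal genes had 22 (28.9%) at a NAC, 20 (26.3%) at a COR and 11 (14.5%) at a CP peak, and COR peaks overlapped 25% of the 176 sites at genes of bipolar disorder association studies and 23.8% of the 42 at circadian clock genes. High COR shares were thus found outside the cortical list too. Over all non-acetylated distal sites the shares were 16.8% for COR, 10.1% for CP and 15.4% for NAC. Sites of a list share genes and domains and the lists share some genes, so these shares are descriptions with no test.

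**Figure D4:**
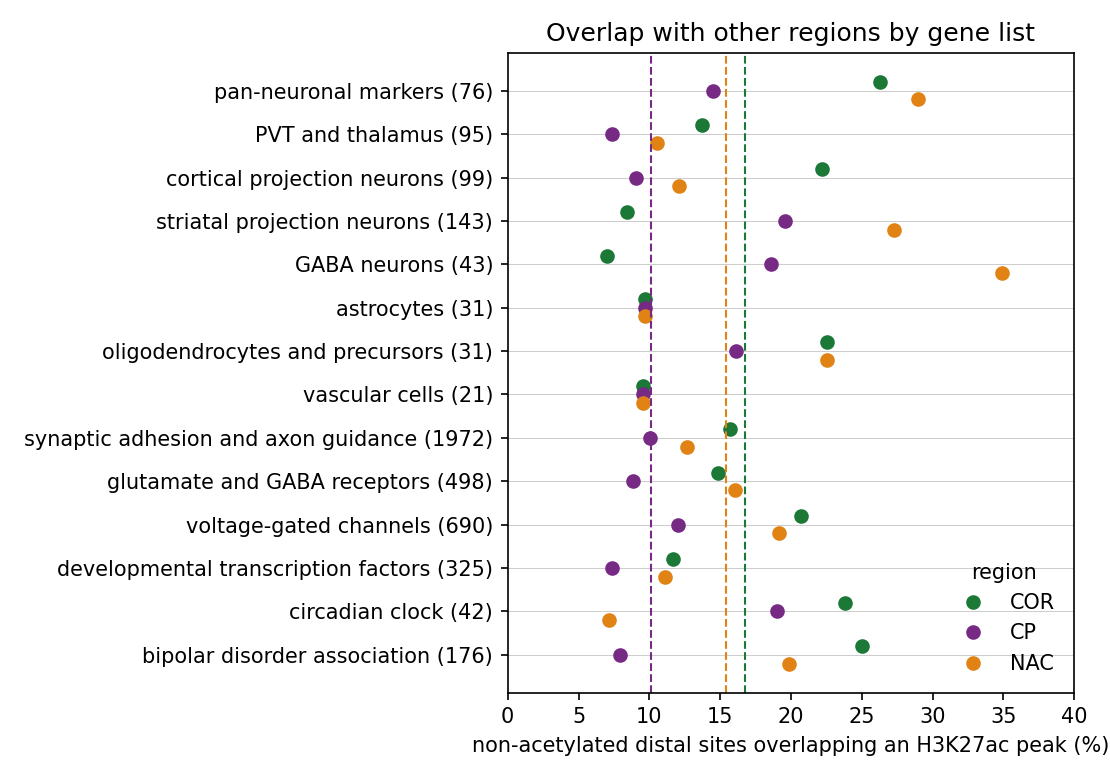
Share of non-acetylated distal sites (percent) that overlap an H3K27ac peak of COR, CP or NAC, for gene lists with at least 20 such sites, with the number of sites in brackets and dashed lines for all 43902 sites. Striatal and GABA neuron lists lie to the right for NAC and to the left for COR, and the cortical list lies to the right for COR. So do other lists, among them the pan-neuronal list, at 26.3% for COR and 28.9% for NAC.

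Over all distal autosomal sites 62.0% were without PVT acetylation, and this share varied over the lists. It was 76.8% at GABA neuron genes, 64.4% at striatal and 62.7% at cortical projection neuron genes, against 44.8% at PVT and thalamus genes and 47.2% at pan-neuronal genes. It was 35.6% at circadian clock genes (42 sites), 48.4% at genes of bipolar disorder association studies (176 sites), 61.0% at voltage-gated channel genes (690 sites) and 66.0% at glutamate and GABA receptor genes (498 sites). It was 67.01% at developmental transcription factor genes (325 sites) and 71.1% at synaptic adhesion and axon guidance genes (1972 sites). In glial and vascular lists it was 53.4% for astrocytes (31 sites), 67.4% for oligodendrocytes and precursors (31), 58.3% for microglia (7) and 80.8% for vascular cells (21).

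Lmo4, a LIM-only cofactor of cortical neurons, had 15 non-acetylated distal sites and 0 acetylated ones, and 5 of the 15 overlapped a COR peak. Its most open site (chr3:144013683-144014011, at a COR peak, 174519 bp away) had 28.9 and 46.9 CPM per kb in Polg and 38.2 and 62.9 in WT libraries. Polg and WT levels overlapped at this most open Lmo4 site. Mef2c, an activity-regulated transcription factor of cortical neurons, had 26 sites without and 12 with acetylation, and 12 of the 26 had a peak elsewhere, 8 of them in COR. Its most open site (chr13:83714976-83715494, at peaks of all 3 regions) had 40.1 and 33.2 in Polg and 18.5 and 32.1 in WT libraries, with both Polg levels above both WT levels.

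Among striatal genes, Rarb, a retinoic acid receptor, had 22 sites without and 12 with acetylation, and 5 of the 22 overlapped a CP and 5 a NAC peak. Its most open site (chr14:16709385-16709821) had 52.9 and 37.9 CPM per kb in Polg and 43.3 and 23.7 in WT libraries. Ebf1, a factor of striatal differentiation, had 21 without and 3 with acetylation, and its most open site (chr11:44777462-44777934) had 15.2 and 13.3 in Polg and 32.6 and 32.8 in WT libraries. That site did not overlap between genotypes (log2 difference -1.20, SE 0.46, edgeR adjusted p = 0.798). Pde10a, the phosphodiesterase of striatal projection neurons, had 20 without and 10 with, and 6 of the 20 overlapped a NAC peak. In the GABA neuron list, Calb1, the calcium-binding protein calbindin, had 11 without and 1 with, and 5 of the 11 overlapped a NAC peak. Among PVT and thalamus genes, Foxp2, a forkhead factor, had 16 sites without and 8 with acetylation, and Col12a1, a collagen, had 11 without and 5 with. Rora, a nuclear receptor high in thalamus, had 11 without and 34 with. Its most open site without acetylation (chr9:68864492-68864840) had 24.3 and 21.5 in Polg and 26.7 and 31.8 in WT libraries.

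The comparison of genotypes asked whether these sites were more or less open in Polg than in WT neurons, and no site passed. The edgeR quasi-likelihood test called 0 of the 42082 non-acetylated distal sites that passed its filter on low counts, at an adjusted p under 0.05 over all 87600 tested ATAC peaks (smallest adjusted p 0.704). The background was 0.00114% called, which is 1 peak. At an unadjusted p under 0.05 there were 3464 sites (8.23%), against 6.13% of all tested peaks, 4.32% of acetylated distal and 3.53% of gene-end sites. DESeq2 called 1 site, that in Chd9 (background 0.00334%), and without Polg 1 edgeR called 3 sites, all lower in the remaining Polg library (background 0.00448%). Both Polg libraries lay above both WT libraries at 10194 sites (24.2%, background 19.8%) and below them at 9005 (21.4%, background 20.9%). The median log2 difference was 0.09, against -0.00 over all tested peaks, and it was 0.01 without Polg 2 and 0.18 without WT 2. One genotype had 0 counts in both libraries at 399 tested sites, and the median was 0.09 also with those at a bound from 3 counts over that group.

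None of the sites of smallest p passed, and their values are descriptions. The site inside Chd9, a chromodomain helicase (chr8:91006650-91006972), had 21.5 and 46.1 CPM per kb in Polg and 0.385 and 1.14 in WT libraries (log2 difference 5.68, SE 0.97, edgeR adjusted p = 0.704). WT libraries held 1 count each there. The site inside Irf2, an interferon regulatory factor (chr8:46803506-46803828), had 32.6 and 9.56 CPM per kb in Polg and 0 and 0 in WT libraries, at least 19.1-fold higher in Polg. The site 2845 bp from Tmprss4, a membrane serine protease (chr9:45169559-45169881, at a COR peak), had 30.2 and 10.6 in Polg and 0 and 0 in WT libraries, at least 19.1-fold higher. The site inside Traf3, a signalling adaptor of tumour necrosis factor receptors (chr12:111204072-111204394, at a COR peak), had 38.1 and 6.49 in Polg and 0 and 0 in WT libraries, at least 18.5-fold higher. The site 200320 bp from Hand2, a basic helix-loop-helix factor (chr8:57120335-57120663), had 0 and 0 in Polg and 15.1 and 21.4 in WT libraries, at least 23.7-fold lower. These 4 had the same edgeR adjusted p of 0.704. The folds set the group at 0 to 3 counts over its libraries and take no account of variation between libraries, so they are not bounds on a genotype difference. The Chd9, Irf2, Tmprss4 and Traf3 sites were each 323 bp wide and the Hand2 site 329 bp, all with names ending in 1. Sites of these widths and names differed between genotypes as groups, as described next.

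Genotype differences went with the width and name of the deposited peaks. The last number of a peak's name was 1 for 19513 sites, each exactly 323 bp wide, and for 11862 sites, each exactly 329 bp wide, while it was 2 or more for the other 12527 sites of 245 to 651 bp. At the 323 bp sites the medians were 14.3 and 12.3 CPM per kb in Polg and 5.01 and 6.87 in WT libraries. At the 329 bp sites they were 6.24 and 6.04 in Polg and 14.4 and 13.5 in WT libraries. At the sites whose name ended in 2 or more they were 15.9 and 16.9 in Polg and 16.8 and 17.9 in WT libraries. The library with the highest level was a Polg library at 87.8% of the 323 bp sites, 8.49% of the 329 bp sites and 44.5% of the others. Of the 3464 sites with an unadjusted p under 0.05, 1858 were 323 bp sites, 1857 of them higher in Polg, and 1442 were 329 bp sites, all lower in Polg. The other 164 were 1.31% of the 12526 tested sites whose name ended in 2 or more, whose median log2 difference was -0.08. Medians were 1.003 for the 323 bp and -1.07 for the 329 bp sites, which is a description, since the same libraries made the peaks and the counts. From which libraries each peak was called is not given in the sources used here.

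**Figure D5:**
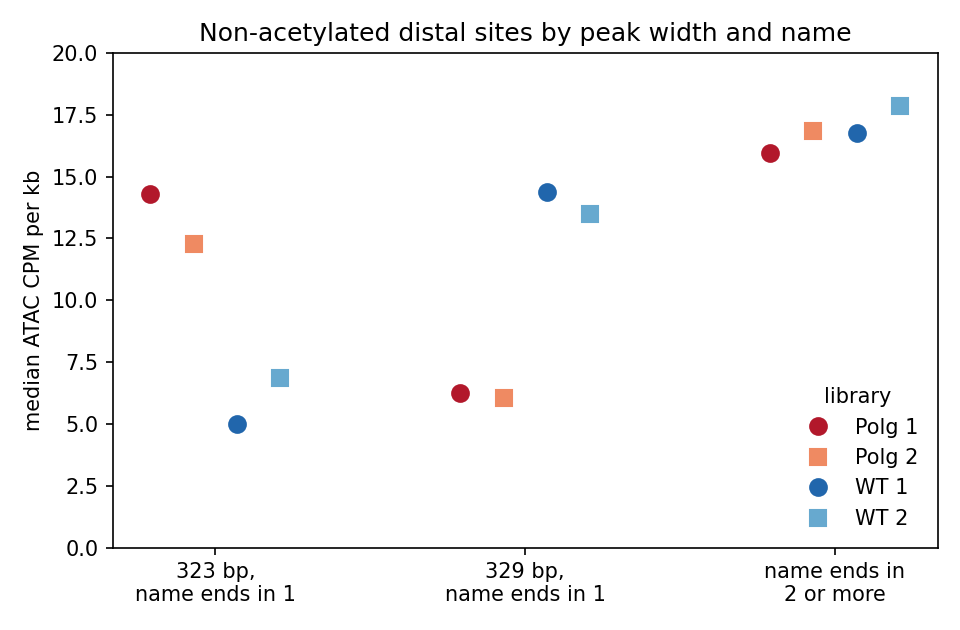
Median ATAC level (CPM per kb, linear axis from 0) of the non-acetylated distal sites, split by the width and last number of the deposited peak name, 1 point per library. Polg libraries lie above WT at 323 bp sites (14.3 and 12.3 against 5.01 and 6.87) and below WT at 329 bp sites, and all 4 lie within 15.9 to 17.9 at the others.

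The same split stood in the acetylated distal sites in smaller size. There the 323 bp sites had a median log2 difference of 0.55 and the 329 bp sites -0.76, and they made up 28.0% and 23.0% of that class, against 44.4% and 27.02% of the non-acetylated distal sites. At sites whose name ended in 2 or more, overlap with COR, CP or NAC acetylation was 40% without and 60.6% with PVT acetylation, so the class difference in overlap stood within that group. It was 25.7% and 49.8% at the 323 bp sites and 28.9% and 51.0% at the 329 bp sites.

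Whether acetylation that lay over these sites in other regions depended on genotype was tested in each region's own table. The biological coefficient of variation, a measure of spread between libraries, was 1.71 in COR, 2.2 in CP and 1.83 in NAC. It was 0.442 in ATAC. With 2 libraries per genotype and such spread, a lack of calls does not show that acetylation was alike. In COR, 6968 peaks overlapped a non-acetylated distal site, 6691 passed the filter, and edgeR called 0 (background 0% of 123573), with 350 (5.23%) at an unadjusted p under 0.05, against 9.29% of all tested COR peaks. In CP, 0 of 3480 tested peaks were called (background 0% of 79535), with 173 (4.97%) at an unadjusted p under 0.05, against 6.69% of all. In NAC, 0 of 5928 were called (background 0.00476%, 5 peaks), with 92 (1.55%) at an unadjusted p under 0.05, against 1.6% of all. DESeq2 called 960 of the COR peaks over these sites (13.8%, background 26.7%), 933 of those in CP (22.8%, background 34.9%) and 72 of those in NAC (1.37%, background 2.61%), each a smaller share than over its whole table. Without CP WT 1 edgeR called 514 peaks (13.5%, background 5.42%) and without CP WT 2 it called 6 (0.14%, background 0.0632%). Without NAC Polg 2 it called 21 (0.335%, background 0.162%), all lower in Polg. With no filter on low counts it called 3 NAC peaks (0.0467%, background 0.0218%). Each fit without 1 library left a single library in that genotype. Without CP WT 1 the WT library left was WT 2, in which 80.8% of CP peaks had no count, and most calls there were higher in Polg. Counts from such fits are therefore not read as results about these sites. Peaks over these sites were narrower than those over acetylated distal sites, with median widths of 1161 and 1604 bp in COR, 558.5 and 916 bp in CP, and 1078 and 1423 bp in NAC.

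The 3 peaks of smallest p in each region are values that did not pass the main edgeR test. DESeq2 did call those at Fmn1, Pde4b, Scarb2, Tox, Gm40892, Ccnl1 and Galnt2. It also called 26.7% of all tested COR, 34.9% of CP and 2.61% of NAC peaks. With no filter on low counts edgeR called those at Galnt2 and Yap1 (background 0.0218%). The COR peak over the site in Fmn1, an actin-nucleating formin (chr2:113647184-113648254), had 0 and 0 counts in Polg and 4852 and 663 in WT libraries. COR peaks in Pde4b, a cAMP phosphodiesterase, and Scarb2, a lysosomal membrane protein, likewise had 0 and 0 counts in Polg, against 3620 and 710 for Pde4b and 2269 and 1129 for Scarb2 in WT libraries (edgeR adjusted p = 0.535 for all 3). Levels in these Polg libraries were at least 1877-fold, 1474-fold and 1156-fold lower, in that order. These folds and those below set the group at 0 to 3 counts over its libraries. They take no account of variation between libraries, so they are not bounds on a genotype difference. The CP peak in Tox, a chromatin factor (chr4:6880272-6881866), had 655 and 4008 counts in Polg and 0 and 0 in WT libraries. CP peaks 602697 bp from Gm40892 and 4397 bp from Ccnl1, a cyclin, had 1124 and 465, and 1023 and 838 counts in Polg, and 0 in each WT library (edgeR adjusted p = 0.373 for all 3). Levels in Polg were at least 1874-fold higher at Tox, 638.5-fold at Gm40892 and 748-fold at Ccnl1. The NAC peak 26967 bp from Galnt2 had 0 and 0 counts in Polg and 237 and 561 in WT libraries, at least 104-fold lower in Polg (edgeR adjusted p = 0.364). NAC peaks in Epb41, a membrane skeleton protein, and Yap1, a Hippo pathway coactivator, had 0 and 29, and 597 and 373 counts in Polg, against 629 and 785, and 6025 and 1870 in WT libraries (edgeR adjusted p = 0.998 for both). Peaks with a name ending in 1 were 73.9% of COR, 88.8% of CP and 78.7% of NAC peaks, and 1 genotype had no count at 29.0%, 54.2% and 28.5% of them. Whether these zeros go with how the peaks were made was not tested.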

How the data were processed

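The authors deposited raw counts per peak for 2 Polg(D181A) and 2 WT libraries of PVT ATAC-seq and of H3K27ac in PVT, COR, CP and NAC, each table on 1 merged peak set (mm10). Per the submitters' processing notes the tools included featureCounts of Subread, HOMER, DESeq2 and STAR, with no roles, and how each peak was called is not given in the sources used here. The columns headed TG were taken as Polg, the only genotype other than WT. RNA libraries and inputs were not used here.

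Sites were chosen by position against protein-coding genes of GRCm38.p6, and 1 shared base counted as an overlap. Levels are CPM on TMM-scaled totals, divided by site width in kb. Genotypes were compared in edgeR 4.0.16 (R 4.3.3) with filterByExpr, TMM and the robust quasi-likelihood test, Benjamini-Hochberg adjusted over the whole table, with DESeq2 1.42.0 as an alternative. The edgeR test was also run on simulated ATAC counts that varied less between libraries than the real ones. That run does not show how small a difference the test could find here. Total ATAC counts were 2932270 to 8040451, and the ATAC biological coefficient of variation was 0.442. The members and lists were chosen with earlier results of these data known. Named sites are the 5 of smallest p, the highest by level and by overlap class, those farthest from genes and deepest inside them, and those nearest 2 kb. Genes named from a list are among the 3 with most sites in it, chosen with their values seen. Printed start windows are those of the most open site of a class, with chromosome 18 left out. Intervals cover counting error only.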

Additional observations from a re-analysis of the deposited data

How the results depend on the processing

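DESeq2 called 1 ATAC site, 960 COR peaks, 933 CP peaks and 72 NAC peaks where edgeR called 0 (background 0.00334%, 26.7%, 34.9% and 2.61% of all tested peaks). Leaving out 1 library gave 0 to 3 ATAC calls (3 without Polg 1), 0 to 0 in COR, 0 to 514 in CP (514 without WT 1, 6 without WT 2) and 0 to 21 in NAC (21 without Polg 2). A fit without 1 library left a single library in that genotype, and without CP WT 1 that was the sparse WT 2. With no filter on low counts NAC had 3 calls (background 0.0218%). The difference in the share of ATAC counts was -4.61 to 7.87 points without 1 library, and with the replicate block it was 13.1 in the first pair and -9.81 in the second. The share that overlapped COR, CP or NAC peaks was 29.6% with no PVT peak within 500 bp, 29.2% within 1000 bp, 32.0% where a PVT peak had to cover 50% of the site, and 23.1% where the other region's peak had to. Chosen after seeing the data, it was 14.8% with peaks counted in all 4 libraries and 40.002% in sites whose name ends in 2 or more. That group had 12527 sites, a median level of 16.9 CPM per kb and a median log2 difference of -0.0766, and the median log2 difference was 0.01 to 0.18 without 1 library. The cause was not tested. The replicate block gave 0 calls among the ATAC sites described and among the peaks over them in each table (smallest edgeR adjusted p at those ATAC sites 0.137). Across tested peaks, deviations of same-numbered libraries correlated at -0.05 in ATAC, 0.02 in COR, -0.03 in CP and -0.04 in NAC. A single correlation per assay and region cannot show whether same-numbered libraries share a batch, and the labels give no pairing. Among the values recomputed for the main results, 48 were unchanged, 17 moved and 3 reversed in sign. Unchanged meant a similar count, the same sign of a difference, a share inside the main interval, or a median within the SD between libraries. The shallow libraries limit single sites, where the median count was 11 to 38.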
